A study of Mus musculus with 3 samples.

Results

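Transcripts of the proteasome were examined in adult Lrrc10-/- mouse hearts. Every gene probe whose name on the array was Psma, Psmb, Psmc, Psmd, Psme, Psmf or Psmg followed by a number was taken, which gave 77 probes with 49 gene names among 28632 genes on the array. Psmc3ip, which encodes a partner of meiotic recombinases and is no proteasome subunit, has 2 of these probes and was left out, so that 48 genes with 75 probes remained. Each of 3 Agilent two-colour arrays compared heart RNA of 2 C57/BL6 Lrrc10-/- mice at 2 months of age, pooled and labelled with Cy5, with heart RNA of 2 wildtype (Lrrc10+/+) mice of the same strain and age, pooled and labelled with Cy3. Lrrc10 encodes a leucine-rich repeat protein of cardiomyocytes, and both groups were otherwise untreated.

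The deleted gene was read first, as a check of the labels. On each of the 3 arrays its probe gave more signal in Cy5, labelled Lrrc10-/-, than in Cy3, labelled wildtype, at log2 ratios of 4.91, 5.56 and 5.65 for replicates 1, 2 and 3. This goes against the labels, so directions below are given by channel. Whether the probe lies in the deleted part of the gene is not given in the sources used here, and if it lies outside, it checks nothing. Whether dyes or labels were exchanged was not tested, so Cy5 cannot be read as either genotype from this probe. Dyes were not swapped, so dye and labelled genotype cannot be told apart, and the arrays shared 1 slide. Cy3 is described as a reference pool. The study's methods describe pools of littermate hearts and independent biological replicates, without saying whether each array had a wildtype pool of its own. Hearts were measured whole, so fewer cells of a type and less RNA per cell cannot be told apart.

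The proteasome degrades proteins that carry ubiquitin chains and is the main route by which cardiomyocytes remove damaged or surplus sarcomere and signalling proteins. Its barrel-shaped core is built of outer rings of alpha subunits, which gate the entrance, and inner rings of beta subunits, which hold the proteolytic sites. A regulatory particle of ATPase and non-ATPase subunits binds, unfolds and feeds in the substrate. Interferon-induced immunoproteasome subunits can replace the catalytic beta subunits, and other caps, an inhibitor and assembly chaperones act beside them.

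The probes of Psmb5, the constitutive chymotrypsin-like subunit, and of Psmb8, the immunoproteasome subunit that takes its place, are shown because they cover matching stretches of both transcripts, and cross-hybridization between them was not tested. The Psmb8 probe shown is the second, dimmer probe of that gene, not the one that stands for it in the values. The array files give the probes as 60 bases. Capitals mark the 31 of 50 aligned bases (62.0%) that were identical in the best alignment without gaps.
Psmb5: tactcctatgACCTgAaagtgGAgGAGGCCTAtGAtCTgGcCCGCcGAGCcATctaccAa
Psmb8: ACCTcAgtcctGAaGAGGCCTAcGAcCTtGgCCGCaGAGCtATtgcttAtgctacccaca

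Proteasome transcripts were detected in both channels. By the brightest probe, all 48 genes were well above background in Cy3 and in Cy5 on every array, against 87.8% of the 20617 tested genes. No proteasome probe was saturated. Of the 75 probes, 71 reached a mean processed signal of 20 and were tested. The other 4, which are further probes of Psma2, Psmb11, Psmd11 and Psmd14, were not well above background in any channel.

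No proteasome gene was called as different between the channels, and few genes of any kind were, so the count of 0 is not particular to the proteasome. By limma with Benjamini-Hochberg adjustment over 29606 probes, 0 of 71 proteasome probes were called at an adjusted p under 0.05, and 0.00676% of all tested probes were called. At an unadjusted p under 0.05 there was 1 of 71 probes, against 3.07% of all tested probes. The methods' t-test called 0 of 71 after adjustment, and the share of all tested probes is not given for it. The study's selection was rebuilt as a ratio of at least 1.2-fold the same way and the array's own p under 0.05 on every array. The methods ask for the fold on all arrays. Whether the p behind it came from the methods' t-test, their default, or from the scanner output, and whether it applied array by array, is unclear from them. This rebuilt selection took 0 of 48 genes as brighter in Cy5, against 0.441% of all tested genes, and 0 as brighter in Cy3, against 0.611%. A mean ratio of at least 2-fold either way was reached by 0 of 48 genes and by 0.917% of all tested genes.

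The spread between arrays also bounded the mean ratio of each gene's brightest probe. For all 48 genes the 95% interval of that ratio from limma lay within 2-fold either way, which held for 79.9% of all tested genes. The median processed signal was 13480 over the 48 genes and 609 over all tested genes. The limma fit lets the spread depend on signal. The share was not matched for signal, so it cannot be read as a trait of the proteasome. The intervals of the 48 genes reached 0.41 to 0.68 to either side of the mean on the log2 scale, with a median of 0.46. Within 1.5-fold lay 26 of the 48, and the share of all tested genes is not given for that bound. Intervals of 3 dimmer probes passed 2-fold: that of Psmc5 ran from −0.36 to 1.04, that of Psme4 from 0.08 to 1.45 and that of Psmf1 from −1.02 to 0.45. The bounds depended on the normalization. When normexp correction was followed by median centring without loess, the interval lay within 2-fold for 30 of 48 genes, with no share of all tested genes given. Under that setting the median log2 ratio of the genes was 0.44, against 0.18 over all tested genes, not matched for signal.

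**Figure D1:**
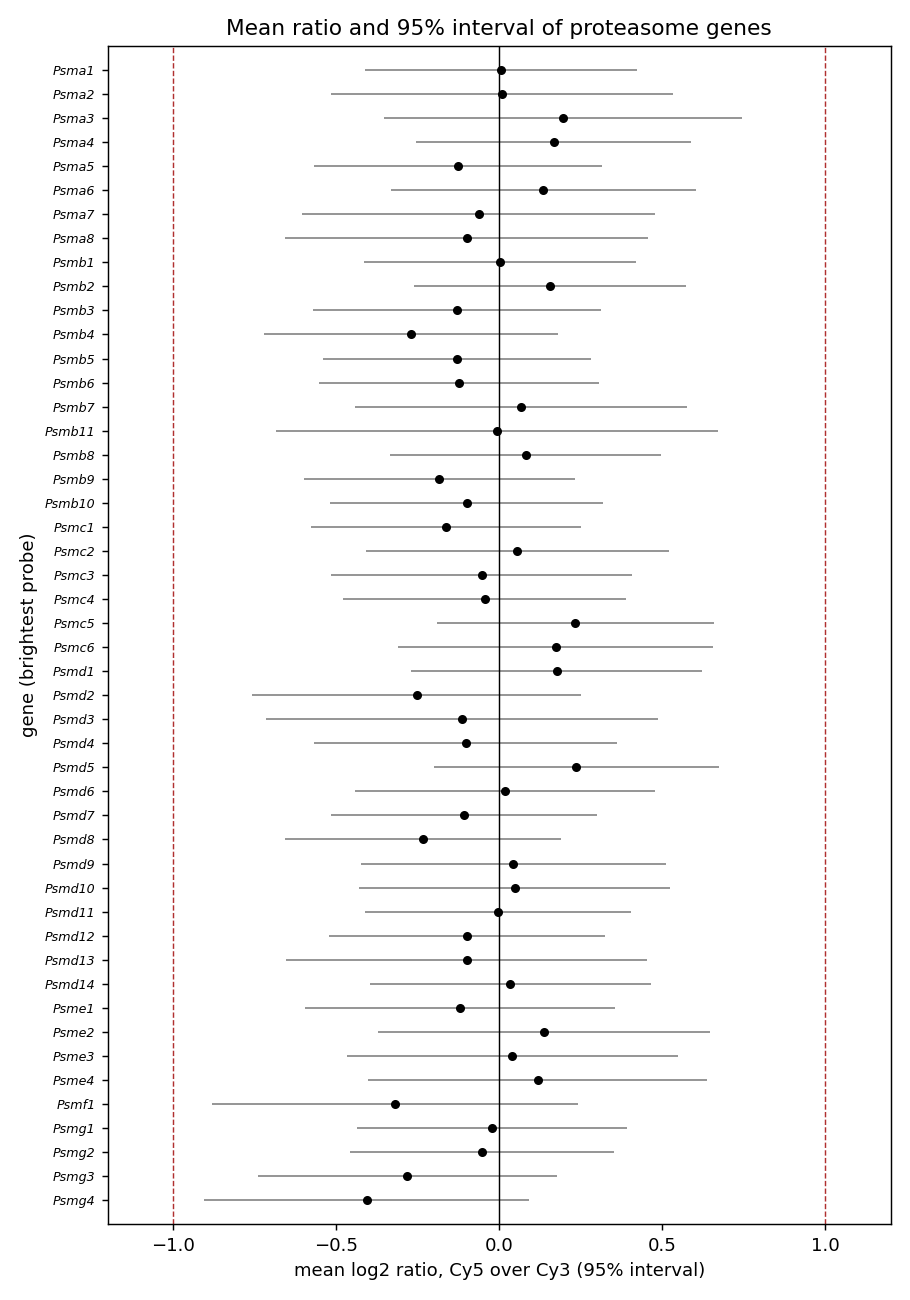
Mean log2 ratio, Cy5 (labelled Lrrc10-/-) over Cy3 (labelled wildtype), of the brightest probe of each of 48 proteasome genes over 3 arrays, with the 95% interval from limma as bars. All intervals cross 0 and lie between the dashed lines at 2-fold.

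The median of the mean log2 ratios, Cy5 over Cy3, was −0.03 over the 48 genes and −0.01 over all tested genes. On replicates 1, 2 and 3 the median of the 48 genes was −0.06, −0.004 and −0.08, against 0.00, 0.04 and −0.06 over all tested genes. Mean ratios ran from −0.41 for Psmg4 to 0.24 for Psmd5. The median SD between arrays was 0.28, against 0.37 over all tested genes, which were not matched for signal. The median error that the scanner software gives for 1 ratio was 0.205.

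Few genes kept a direction. On each array brighter in Cy5 were 2 of 48 genes, Psmb2 and Psmc5, against 9.46% of all tested genes. Brighter in Cy3 on all 3 arrays were 6 of 48, Psmb4, Psmb5, Psmb9, Psmc1, Psmd7 and Psmd8, against 12.2%. With 3 arrays an exact two-sided sign-flip test cannot go below p = 0.25, so these counts were not tested. When normexp was followed by median centring, the counts turned to 34 of 48 in Cy5, against 42.8% of all tested genes, and 0 in Cy3, against 10.8%. With normexp and loess they were 11 in Cy5, against 16.1%, and 7 in Cy3, against 16.5%. None of these shares was matched for signal.

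**Figure D2:**
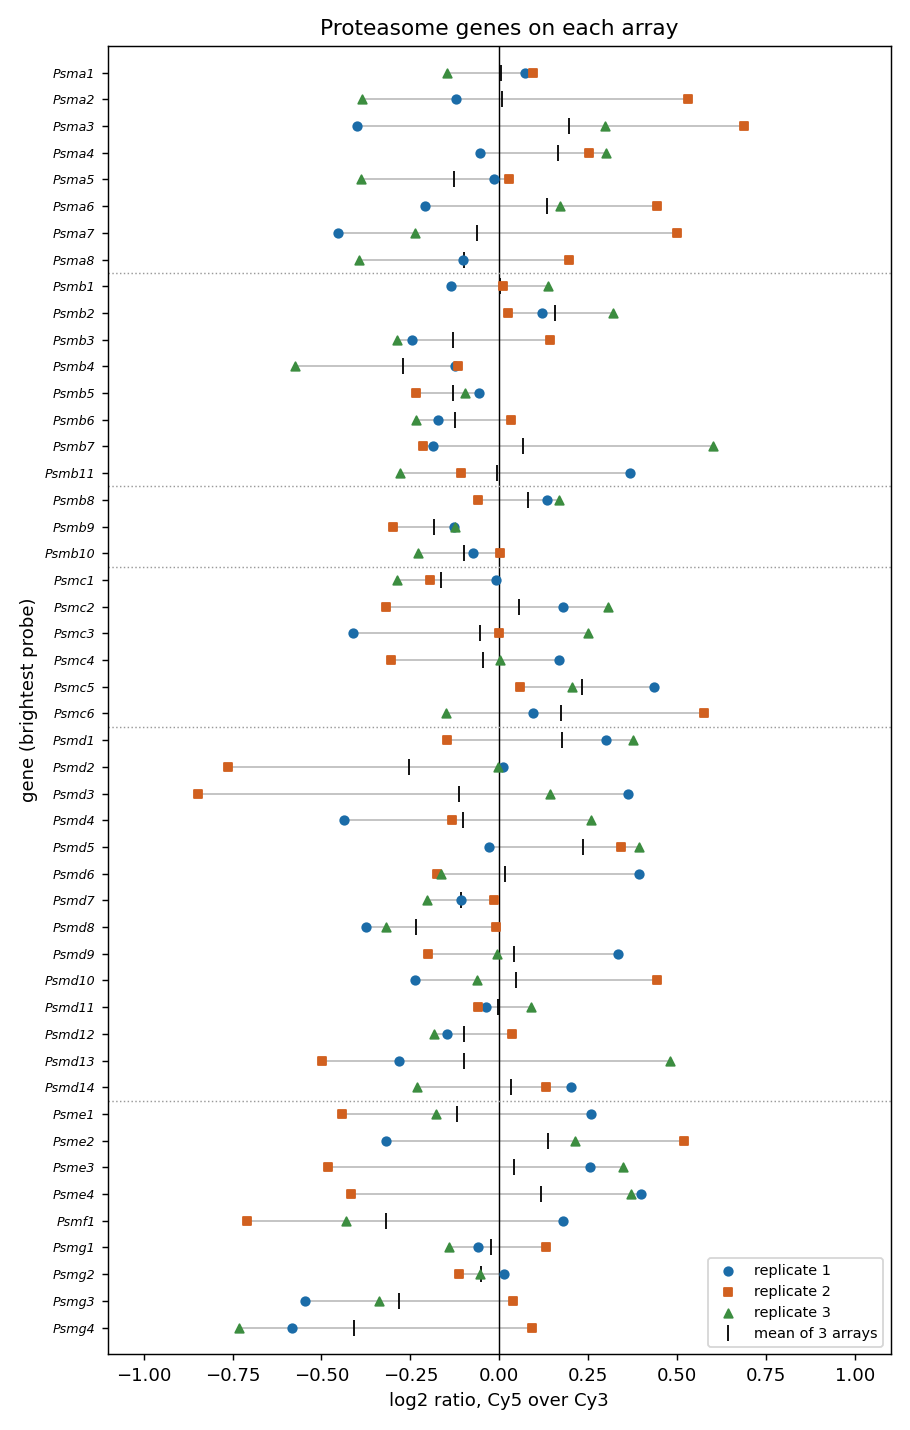
Log2 ratio, Cy5 over Cy3, of the brightest probe of each of 48 proteasome genes on each of 3 arrays, with lines from the lowest to the highest array and dotted lines between subunit groups. For most genes the arrays lie on both sides of 0, and 8 genes lie on 1 side.

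The alpha subunits form the outer rings of the core. All 8 genes were brighter in Cy5 on replicate 2, where their median log2 ratio was 0.35, against 10860 of all 20617 tested genes. On replicate 1, 7 of 8 were brighter in Cy3, against 10249 of all tested genes, with a median of −0.11. On replicate 3 it was 5 of 8, against 11563, with a median of −0.19. The alpha genes were 1 of 6 groups looked at, and these counts were not tested. Psma3 had the highest mean ratio of the group, with log2 ratios of −0.40, 0.69 and 0.30 on replicates 1, 2 and 3 (mean 0.20 ± 0.55, SD, n = 3). Psma5 had the lowest, with −0.02, 0.03 and −0.39 (mean −0.13 ± 0.23, SD, n = 3). The mean of Psma5 turned to 0.035 with normexp and loess and 0.493 with normexp and median centring. The group therefore had no common direction over the arrays. Psma8 encodes a subunit known from testis, and its probe, with a mean processed signal of 207.0, was well above background on every array. Its log2 ratios were −0.10, 0.19 and −0.40. The testis gene Ddx4 was well above background as well, with log2 ratios of 0.49, 0.24 and 0.38, whereas Sycp3 did not reach a signal of 20.

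The constitutive catalytic subunits are Psmb5, Psmb6 and Psmb7, with chymotrypsin-like, caspase-like and trypsin-like activity. The processed signals of Psmb5 in Cy5 were 15772, 19420 and 15684 on replicates 1, 2 and 3, against 16415, 22843 and 16780 in Cy3. Cy3 was the brighter channel on each array, with log2 ratios of −0.06, −0.23 and −0.10 (mean −0.13 ± 0.09, SD, n = 3, limma adjusted p = 1), and the signals of the channels overlapped. That direction depended on the processing, since the mean of Psmb5 was −0.006 with normexp and loess and 0.443 with normexp and median centring. The Cy5 signals of Psmb6 were 42072, 54529 and 40520, and its Cy3 signals were 47376, 53273 and 47650. Its log2 ratios of −0.17, 0.03 and −0.23 lay on both sides of 0. The Cy5 signals of Psmb7 were 6569, 9110 and 6425, and its Cy3 signals were 7474, 10571 and 4238. Its log2 ratios were −0.19, −0.21 and 0.60, so that replicate 3 lay opposite to the other arrays. Without replicate 3 the mean of Psmb7 was −0.20, against 0.07 over 3 arrays.

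Each immunoproteasome subunit was measured beside the constitutive subunit it replaces. Psmb8 had Cy5 signals of 2593, 3457 and 3107 beside Cy3 signals of 2364, 3604 and 2766, and log2 ratios of 0.13, −0.06 and 0.17 (mean 0.08 ± 0.12, SD, n = 3). Its second probe gave 0.09, −0.24 and 0.11, so both probes were brighter in Cy3 on replicate 2 alone. Psmb9, which replaces Psmb6, had Cy5 signals of 2066, 2557 and 2056 beside Cy3 signals of 2255, 3149 and 2243. Cy3 was brighter on each array, with log2 ratios of −0.13, −0.30 and −0.13 (mean −0.18 ± 0.10, SD, n = 3, limma adjusted p = 1). The Psmb9 mean was −0.034 with normexp and loess and turned to 0.344 with normexp and median centring, and that of Psmb8 was −0.126 and 0.246. Psmb10, which replaces Psmb7, had Cy5 signals of 24293, 35354 and 26332 beside Cy3 signals of 25585, 35279 and 30873, and log2 ratios of −0.07, 0.00 and −0.23. The 95% intervals of the mean log2 ratio were −0.34 to 0.50 for Psmb8, −0.60 to 0.23 for Psmb9 and −0.52 to 0.32 for Psmb10.

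Among the other beta subunits, Psmb2 had the highest mean ratio, with log2 ratios of 0.12, 0.03 and 0.32. Psmb4 had the lowest, with −0.12, −0.12 and −0.58 (mean −0.27 ± 0.26, SD, n = 3), and turned to 0.139 with normexp and median centring. Psmb1 and Psmb3 had means of 0.00 and −0.13. Psmb11 encodes the catalytic subunit of thymic epithelium, and its brighter probe, with a mean processed signal of 63.5, was well above background and had log2 ratios of 0.37, −0.11 and −0.28. Among the thymus markers 3 genes were tested, and 1 further marker did not reach the signal minimum for testing. The 3 tested markers were well above background, with mean log2 ratios from −0.42 to 0.30 and none called. The part of these markers in the signal of Psmb11 was not tested.

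The 6 Psmc genes encode the ATPase ring that unfolds substrates. Their median log2 ratio was 0.13, −0.10 and 0.10 on replicates 1, 2 and 3. Psmc5 had the highest mean, with log2 ratios of 0.44, 0.06 and 0.21 (mean 0.23 ± 0.19, SD, n = 3, limma adjusted p = 1). Its dimmer probe gave 0.11, −0.36 and 1.28 and so changed direction between arrays. Psmc1 had the lowest mean, with −0.01, −0.20 and −0.29, and turned to 0.110 with normexp and loess and 0.554 with normexp and median centring. The other 4 had means from −0.05 to 0.17.

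The 14 Psmd genes encode the other subunits of the regulatory particle and chaperones of its assembly. Their median log2 ratio was −0.03, −0.10 and −0.01 on the arrays. Psmd2, a scaffold of the base, had the lowest mean, and nearly all of it came from replicate 2, with log2 ratios of 0.01, −0.76 and −0.01 (mean −0.25 ± 0.44, SD, n = 3). Its second probe repeated the value of that array, with −0.09, −0.80 and 0.41. Psmd3 of the lid had −0.85 on replicate 2 against 0.36 and 0.14 on the others. Psmd5, an assembly chaperone, had the highest mean, with −0.03, 0.34 and 0.39 (mean 0.24 ± 0.23, SD, n = 3). Over the 8 lid genes, which include the deubiquitinase Psmd14, mean ratios ran from −0.23 to 0.03. Psmd4, a ubiquitin receptor, had −0.44, −0.13 and 0.26.

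The activators cap the core in place of the regulatory particle. Psme1 and Psme2 encode the interferon-induced PA28 alpha and beta subunits, which form 1 complex, and their ratios lay on opposite sides of 0 on every array. Psme1 had log2 ratios of 0.26, −0.44 and −0.18, and Psme2 had −0.32, 0.52 and 0.21. A second Psme2 probe gave −0.22 and 0.34 on replicates 1 and 3, and its spot on replicate 2 was an outlier and left out. Psme3, the nuclear PA28 gamma, had 0.25, −0.48 and 0.35.

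Psme4 encodes PA200, a large activator. Its brightest probe had log2 ratios of 0.40, −0.42 and 0.37 (mean 0.12 ± 0.46, SD, n = 3), again with replicate 2 opposite to the others. Its dimmest probe, with a mean processed signal of 55.2, gave 0.81, 1.04 and 0.45 and had the lowest unadjusted p of all proteasome probes, 0.033 from limma, with an adjusted p of 1. It was brighter in Cy5 on replicate 2, where the brightest probe was brighter in Cy3, and it was not well above background in every channel. The proteasome inhibitor PI31, encoded by Psmf1, had log2 ratios of 0.18, −0.71 and −0.43, and its other probes gave −1.01 and −0.88 on replicate 2. All 3 Psmf1 probes were thus brighter in Cy3 on that array and differed in sign on the others.

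The Psmg genes encode chaperones that assemble the alpha ring. Psmg4 had the lowest mean of all 48 genes, with log2 ratios of −0.58, 0.09 and −0.73 (mean −0.41 ± 0.44, SD, n = 3, 95% interval −0.91 to 0.09). Psmg3, its partner in one chaperone pair, had −0.55, 0.04 and −0.34 (mean −0.28 ± 0.30, SD, n = 3). Both were brighter in Cy3 on replicates 1 and 3 and near 0 on replicate 2, and neither was called. The rank depended on the processing. With normexp and loess the mean was −0.450 for Psmg4 and −0.482 for Psmg3. With normexp and median centring it was −0.031 and −0.139. Psmg1 and Psmg2 had means of −0.02 and −0.05.

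**Figure D3:**
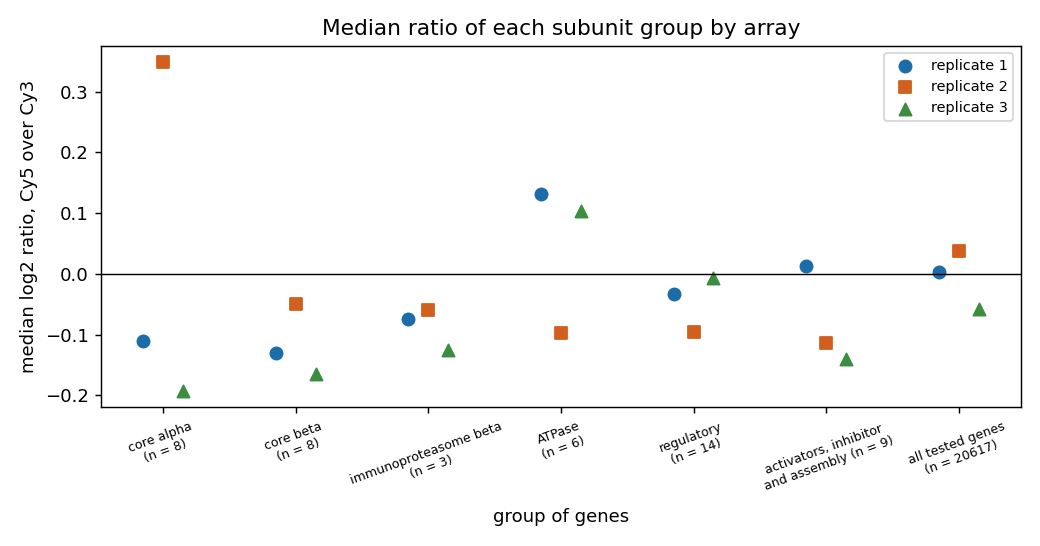
Median log2 ratio, Cy5 over Cy3, of each subunit group and of all tested genes on each of 3 arrays, with the number of genes under each group. The alpha genes stand at 0.35 on replicate 2, where all tested genes stand at 0.04, and below 0 on the other arrays.

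On single arrays some genes passed the array's own test, in both directions, and every count lay below the share of all tested genes. By the array's own p under 0.05, which covers 1 spot on 1 array, replicate 1 had 1 of 48 genes brighter in Cy5, against 12.4% of all tested genes, and 5 brighter in Cy3, against 13%. On replicate 2 there were 7 of 48 in each direction, against 20.5% brighter in Cy5 and 17.2% brighter in Cy3. Those brighter in Cy5 were Psma2, Psma3, Psma6, Psma7, Psmc6, Psmd10 and Psme2, and those brighter in Cy3 were Psmd2, Psmd3, Psmd13, Psme1, Psme3, Psme4 and Psmf1. On replicate 3 there were 2 brighter in Cy5, Psmb7 and Psmd13, against 11.3%, and 3 brighter in Cy3, Psmb4, Psmf1 and Psmg4, against 15.8%. Psmd13 and Psma7 passed in opposite directions on different arrays. Across the 48 genes, the ratios of replicates 1 and 2 correlated with Pearson's r = −0.45, those of 1 and 3 with 0.18 and those of 2 and 3 with −0.11, against 0.13, −0.04 and −0.16 across all tested genes. By rank, Spearman's rho of the same pairs was −0.445, 0.166 and −0.2, against −0.013, 0.007 and −0.166 across all tested genes. These are descriptions across genes, which share the arrays and are not independent replicates.

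For 17 genes a second probe was well above background on all arrays, which allowed values of 1 transcript on 1 array to be compared. The probes differed by a median of 0.17 on the log2 scale within an array, whereas the brightest probe of the same genes differed by a median of 0.31 between arrays. In 31 of 50 pairs both probes had the same sign. The correlation of the pairs was 0.47, 0.80 and 0.11 on replicates 1, 2 and 3, and on replicate 2 Psmd2 and Psmf1 lay lowest by both probes.

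**Figure D4:**
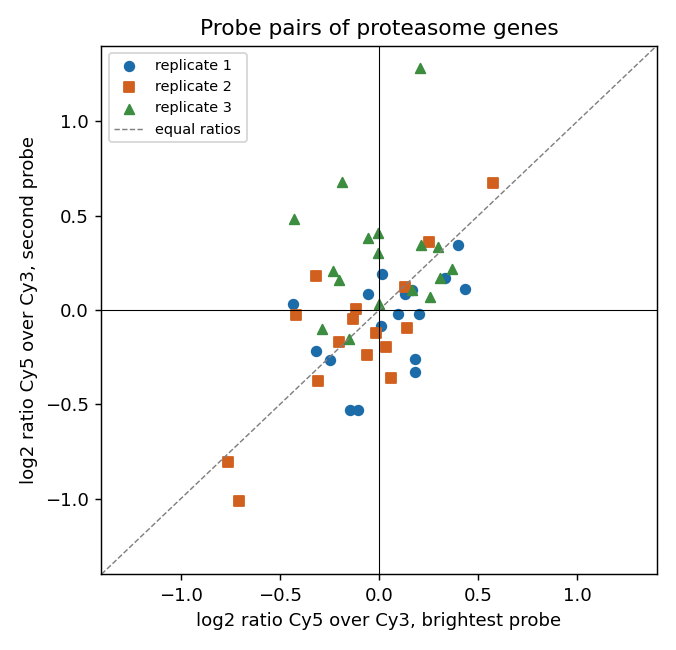
Log2 ratio, Cy5 over Cy3, of the second probe against the brightest probe of 17 proteasome genes, 1 point for each gene and array (50 pairs). The dashed line marks equal ratios, and Psmd2 and Psmf1 are the lowest points of replicate 2 by both probes.

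The genes that work with the proteasome gave a like picture. Of 30 further pathway genes, among them the assembly factor Pomp, the transcription factor Nfe2l1, the segregase Vcp and the ubiquitin genes, 0 were called by limma and 0 passed the selection, with a median log2 ratio of 0.02. Of 6 tested partners of the immunoproteasome in antigen presentation, such as Tap1 and B2m, 0 were called and 0 passed, with a median of −0.16 and medians of 0.17, −0.68 and −0.03 on the arrays. Of 10 leukocyte markers 0 were called or selected, and 9 were well above background in every channel, with a median of 0.12. Of 8 cardiomyocyte markers, all well above background and 7 of them saturated somewhere, 0 were called, and the list had a median of −0.22. Their mean log2 ratios ran from −0.67 for Myl2 to 0.33 for Myh6, which had 0.03, −0.48 and 1.45 on the arrays. Among them 2, Tnnt2 and Myl2, were selected as brighter in Cy3, against 0.611% of all tested genes, and both probes were saturated. The 4 endothelial and 4 fibroblast markers had medians of −0.16 and −0.10 with none called or selected. The 2 red blood cell markers, of which Hba-a1 was saturated, had medians of 0.79, 1.00 and −0.17 on replicates 1, 2 and 3, so that replicate 3 lay opposite to the others, and none was called or selected. The part of any cell type in the proteasome values was not tested.

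RefSeq promoters (GRCm38.p6, 250 bases before to 50 after the start) were at hand for 40 of the 48 genes. They were searched on both strands for the core of the antioxidant response element, TGACNNNGC, which binds the Nfe2l factors known to drive proteasome genes. It was present in 6 of 40 proteasome promoters, or 15%, and in 14% of 27025 genes with a promoter. It is shown in capitals, with up to 20 bases on each side, for the 5 genes in which it lies before the start (in Psme4 it spans the start), among them the constitutive catalytic genes Psmb5 and Psmb6.
Psmb5 (chr14:54618014-54618062, minus strand): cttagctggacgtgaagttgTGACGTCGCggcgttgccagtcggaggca
Psmb6 (chr11:70525328-70525356, plus strand): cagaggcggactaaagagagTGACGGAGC
Psmc6 (chr14:45329577-45329625, plus strand): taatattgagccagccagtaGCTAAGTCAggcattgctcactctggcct
Psmd9 (chr5:123228139-123228187, plus strand): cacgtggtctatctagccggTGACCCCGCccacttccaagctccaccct
Psmd12 (chr11:107479278-107479309, plus strand): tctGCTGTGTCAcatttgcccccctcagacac

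The median log2 ratio was −0.028 for the 6 genes with this element and −0.015 for the others. The ETS core CCGGAAG was present in 14 of 40 proteasome promoters, or 35%, against 9.93% of all genes, and the genes with it had a median log2 ratio of −0.013 against −0.026 without it. The GC box GGGCGG was present in 57.5% against 38.2%, with a median log2 ratio of 0.008 for the genes with it and −0.100 without it. The CCAAT box was present in 35% against 41.1%, with medians of 0.007 and −0.072. Differences between these medians were not tested. The motifs were chosen after the promoters had been searched, and a match describes the sequence and is no measured site.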

How the data were processed

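RNA of whole hearts was measured on 3 Agilent two-colour whole mouse genome arrays. The authors deposited the output of Feature Extraction 9.1.3.1, in which local background had been subtracted and dye bias removed array by array. The processed signal intensity, the log10 ratio of Cy5 over Cy3 and the p-value of each spot were used as deposited. The authors' second table holds the same log10 ratios. Of 43379 gene spots per array, 11, 21 and 4 outliers were left out on replicates 1, 2 and 3. Ratios were converted to log2 and averaged by probe, which gave 41174 probes, of which 24844 were named through RefSeq accessions and the others by the array's annotation, which can be old. Members kept the array's own names, which equalled the RefSeq symbol for all 65 members with one. Probes with a mean processed signal of at least 20 were fitted with limma 3.58.1 in R 4.3.3 (eBayes with trend, two-sided) and p-values adjusted by the Benjamini-Hochberg method. The limma steps were tested on simulated data. The brightest probe stood for a gene.

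Genes were named by a rule: the catalytic, immunoproteasome and activator genes, any gene called or selected, the highest and lowest mean of the Psma, Psmb, Psmc and Psmd groups, and the testis and thymus genes. Other genes were named after their values were seen. The members, lists and this rule were chosen with earlier results of these data known. Alternatives were the signal minimum, normexp with loess or median centring, array centring, saturated probes left out, the mean over probes, eBayes without trend, the methods' t-test, the authors' table, other p criteria and each array left out. The labels name pools but not litters or days, so p-values measure the spread between these arrays, whose number limits the precision.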

Additional observations from a re-analysis of the deposited data

How the results depend on the processing

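No proteasome probe was called by limma under any alternative run, and none of the 48 genes was selected as brighter in Cy5. Of all tested probes 545 were called without replicate 3, and 0 to 2 in the other limma runs. Leaving out 1 array gave 0 to 1 genes selected as brighter in Cy3, which was Psmf1 without replicate 1 and Psmg4 without replicate 2. The share of all tested genes selected in those runs is not given, so these selections have no background to be read against. Counts of genes with 1 direction moved when background correction and normalization were changed together. Normexp and loess put 11 genes higher in Cy5 on each array, against 16.1% of all tested genes, and 7 higher in Cy3, against 16.5%. Normexp and median centring put 34 higher in Cy5, against 42.8% of all tested genes, and 0 higher in Cy3, against 10.8%. Leaving out an array gave 5 to 9 genes brighter in Cy5 and 10 to 18 brighter in Cy3, with fewer arrays to match. The share of all tested genes is not given for these runs, so the counts cannot be read as particular to the proteasome. The median log2 ratio of the genes was 0.012 with normexp and loess and 0.441 with normexp and median centring, where the median of all tested genes was 0.178, and 25 of 48 genes had the other sign. The lowest adjusted p of a proteasome gene was 0.0697 under that setting. Intervals within 2-fold, counted after the data had been seen, held for 30 genes with normexp and median centring. They held for 40 to 47 with an array left out and for 44 to 48 otherwise. The share of all tested genes is not given for these alternatives. The causes were not tested. No paired analysis was possible because each array is already a ratio of its 2 channels and the labels give 1 group.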
